A study of Mus musculus with 203 samples.

Results

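The genes described here are the ephrins, Slits and Netrins and their receptors, taken by symbol from the count table: 5 ephrin-A genes, 3 ephrin-B genes, 9 EphA and 5 EphB receptor genes, 3 Slit genes, 4 Robo genes, 4 Netrin genes, 4 *Unc5* genes, and *Dcc* and *Neo1*. They make up 39 of the 24029 genes in the table, and all 39 symbols of the rule were found. They were measured by Smart-seq2, a full-length method for sequencing the RNA of single cells, in single neurons of the mouse nucleus ambiguus, a brainstem nucleus that holds parasympathetic neurons of the heart and motor neurons of the larynx. The mice were wild type, of strain C57BL/6 (C57BL/6NCrl in the study's methods), with no transgene or Cre in any group. Cholera toxin B carrying a fluorophore, which axons carry back to the cell body, was injected on postnatal day 1 into the pericardial space or the cricothyroid muscle of the larynx, and labeled cell bodies were drawn into a pipette from living slices on postnatal days 2 to 4. The deposited annotation places 53 heart-labeled neurons in the type ACP (ambiguus cardiopulmonary), 98 in the type ACV (ambiguus cardiovascular), and 52 larynx-labeled neurons in the type Larynx.

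Many mice were pooled in each type, and the labels do not say which neurons came from which mouse, so each type counts as 1 sample. No p-value was therefore computed, and a difference between types is given as values, with its fold and the spread over neurons. ACP and ACV were told apart by clustering these same counts, so a difference between them is not independent of how the types were made. Larynx neurons were told apart by the tracer target and came from other mice than the heart-labeled neurons, so type and mice cannot be told apart there. The 3 comparisons share their neurons and are set side by side without being correlated.

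Ephrins and Eph receptors are membrane-bound partners: ephrin-A proteins are held by a lipid anchor and mainly bind EphA receptors, ephrin-B proteins span the membrane and mainly bind EphB receptors, and signals can pass both ways between touching cells. Slits are secreted ligands that mostly repel growth cones through Robo receptors. Netrins attract growth cones through DCC and repel them when UNC5 receptors take part, and Neogenin, the product of *Neo1*, is a DCC relative that also binds RGM proteins. In the developing brainstem and spinal cord these families steer motor axons to their exit points and on to their target muscles or ganglia.

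Total counts per neuron ran from 854487 to 3175434 in ACP, from 840315 to 3116633 in ACV and from 542162 to 3292763 in Larynx. A single row, *Rn45s* (ribosomal precursor RNA), took 37% ± 12.9 (SD over neurons) of the counts of ACP, 38.5% ± 14.8 of ACV and 58.2% ± 15.7 of Larynx neurons, so a level here is the count per 10000 counts outside *Rn45s*. The median neuron had 1115375 such counts in ACP, 1120512 in ACV and 560892 in Larynx. Some shares of neurons with a read are therefore also given at equal depth, with each neuron thinned to 300000 counts outside *Rn45s*. Thinning left out 8 Larynx neurons and none of the others. Intervals on shares are 95% exact (Clopper-Pearson) intervals that treat each neuron as a separate draw. They take in the error of counting neurons and nothing else. The spread between mice is left out, so they may be too narrow. PCR copies of 1 molecule could not be told from separate molecules. The labels held against markers: the 4 laryngeal markers of the study (*Calca*, *Calcb*, *Dlk1*, *Pnoc*) had a summed level of 37.7 ± 42.5 in Larynx neurons against 1.45 ± 2.85 in ACP and 0.955 ± 1.64 in ACV. The ACP markers (*Calb1*, *Trhr*, *Tacr3*, *Mc4r*) summed to 4.67 ± 2.80 in ACP, 0.538 ± 0.919 in ACV and 1.28 ± 1.92 in Larynx, and the ACV markers (*Bche*, *Ghsr*, *Htr3b*, *Sstr2*) to 0.194 ± 0.291, 2.28 ± 1.90 and 0.157 ± 0.320. *Ghsr* and *Htr3b* were at 0 in every ACP neuron. The study chose these markers on these neurons. Motor neuron genes (*Chat*, *Slc18a3*, *Slc5a7*, *Isl1*) had a read in at least 10% of the neurons of every type.

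Reads of marker genes of other cells were also present, and whether the labeled neurons themselves made some of this RNA was not tested. The summed level of 7 astrocyte genes averaged 15.9 in ACP (range 0.111 to 88.9), 25.1 in ACV (0.187 to 305) and 16.4 in Larynx (0 to 146.2), and 10 oligodendrocyte lineage genes averaged 7.63 (0 to 76.9), 5.07 (0 to 86.8) and 7.48 (0 to 46.7). The 7 microglia genes averaged 0.723 (0 to 6.48), 3.63 (0 to 50.9) and 2.14 (0 to 20.2), and all 6 that could be compared were at least 2-fold lower in ACP than in either other type. The 7 endothelial and mural genes averaged 0.292 (0 to 2.47), 0.212 (0 to 3.07) and 0.363 (0 to 3.77), with *Flt1* at 0 in ACP, and 5 genes of inhibitory and glutamatergic neurons averaged 1.27 (0 to 19.9), 1.52 (0 to 22.2) and 3.38 (0 to 12.4). No gene of the astrocyte, oligodendrocyte, microglia and inhibitory or glutamatergic lists was at 0 in every neuron of a type. The part of these cells in the results was not tested. Each fold of the members below was recomputed in the neurons with at most 900 counts of *Apoe*, an astrocyte gene. These were 26 of 53 ACP, 44 of 98 ACV and 38 of 52 Larynx neurons. The limit is on raw counts, and Larynx neurons had fewer counts outside *Rn45s*, so as a level it was looser for Larynx.

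The sequence just around the start of transcription is shown for 4 members as examples of the patterns described: *Efna5* and *Epha7*, which had higher levels in both heart-labeled types than in Larynx, *Epha5*, which was highest in ACP, and *Ephb1*, which was highest in Larynx. Each line gives 250 bases before to 50 bases after the start in RefSeq (GRCm38.p6), read along the strand of the gene. Capitals mark the GC box letters GGGCGG and, for the other strand, CCGCCC. The windows are chr17:62881268-62881567 (minus strand) for *Efna5*, chr5:84417333-84417632 (minus strand) for *Epha5*, chr4:28812881-28813180 (plus strand, the more upstream of 2 listed starts) for *Epha7* and chr9:102354644-102354943 (minus strand) for *Ephb1*.
Efna5: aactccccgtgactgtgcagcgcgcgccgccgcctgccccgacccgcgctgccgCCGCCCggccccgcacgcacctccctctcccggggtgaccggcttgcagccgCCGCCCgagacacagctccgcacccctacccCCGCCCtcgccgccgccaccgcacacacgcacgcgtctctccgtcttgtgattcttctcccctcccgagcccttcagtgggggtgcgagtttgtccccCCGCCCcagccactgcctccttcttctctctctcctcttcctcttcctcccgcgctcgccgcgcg
Epha5: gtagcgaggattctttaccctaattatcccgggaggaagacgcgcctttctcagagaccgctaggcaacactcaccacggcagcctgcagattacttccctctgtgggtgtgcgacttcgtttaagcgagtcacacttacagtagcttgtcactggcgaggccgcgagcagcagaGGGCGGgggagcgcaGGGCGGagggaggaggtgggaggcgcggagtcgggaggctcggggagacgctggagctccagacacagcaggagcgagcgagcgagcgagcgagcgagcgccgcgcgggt
Epha7: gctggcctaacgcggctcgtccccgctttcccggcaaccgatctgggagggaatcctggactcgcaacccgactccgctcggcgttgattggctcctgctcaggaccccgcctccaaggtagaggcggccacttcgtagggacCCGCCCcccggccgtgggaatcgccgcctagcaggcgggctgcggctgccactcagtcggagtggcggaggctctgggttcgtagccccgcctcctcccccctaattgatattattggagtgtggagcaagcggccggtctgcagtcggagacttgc
Ephb1: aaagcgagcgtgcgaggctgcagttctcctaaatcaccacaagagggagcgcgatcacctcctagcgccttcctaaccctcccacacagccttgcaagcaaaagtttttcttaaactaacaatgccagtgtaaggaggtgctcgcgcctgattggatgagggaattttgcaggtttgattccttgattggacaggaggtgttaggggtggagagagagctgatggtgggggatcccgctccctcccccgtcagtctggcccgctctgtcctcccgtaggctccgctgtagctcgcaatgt
The *Efna5* window held 4 GC boxes and 38 CG dinucleotides, the *Epha5* window 2 and 30, the *Epha7* window 1 and 28, and the *Ephb1* window none and 14. Of 39 windows of the 34 members with an entry, 27 (69.2%) held the motif, against 11714 of 32851 windows of all genes (35.7%), and the median number of CG dinucleotides was 21 against 7. The windows of all genes were not limited to protein-coding genes or to genes read in these neurons. A comparison limited in that way was not made. A match describes the letters and is not a binding site. *Efna5* lies at chr17:62604184-62881317, *Epha5* at chr5:84054761-84417382, *Epha7* at chr4:28813131-28967499 and *Ephb1* at chr9:101922128-102354693 (GENCODE M21, GRCm38).

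Most members had reads in at least some neurons of each type, while the level differed widely among them. A neuron had a read of 18.9 ± 5.2 members in ACP (lowest 8, median 20, highest 31), 17.7 ± 5.3 in ACV (5, 18, 32) and 19.7 ± 6.4 in Larynx (3, 21, 30). At equal depth the means were 17.6, 16.2 and 19.2. A gene was compared between 2 types where 10% or more of the neurons of 1 of them had a read, and 7 members did not reach this in any comparison: *Epha1*, *Epha2*, *Ephb4*, *Ntn4*, *Ntn5*, *Robo3* and *Robo4*. *Efna4* reached it in ACP alone. The plot of all members by type shows both the share of neurons with a read and the mean level.

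**Figure D1:**
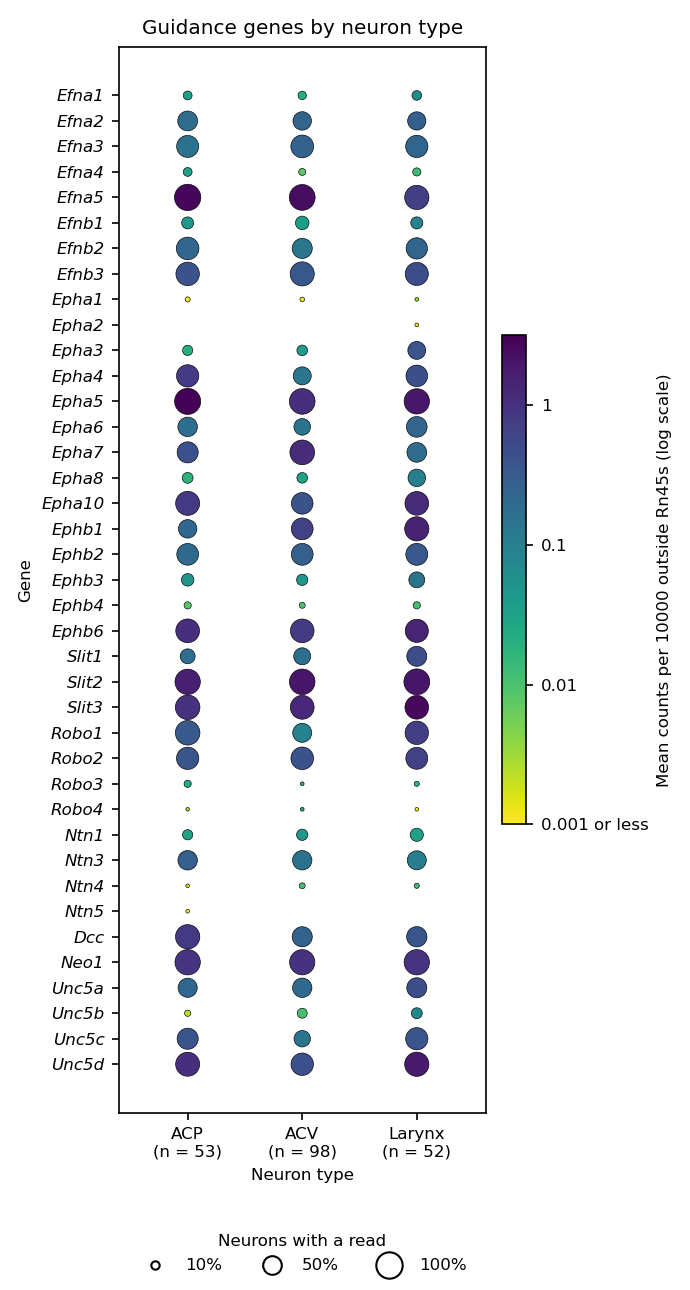
Each dot is 1 gene (rows, by family) in 1 neuron type (columns). Its area is the share of neurons with a read and its color the mean counts per 10000 outside Rn45s on a log scale. *Efna5*, *Epha5*, *Slit2* and *Neo1* had reads in most neurons of every type, and no dot is drawn where no neuron had a read (*Epha2* in ACP and ACV, *Ntn5* in ACV and Larynx).

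A fold of at least 2 between mean levels was taken as the mark of a difference, with the share of all compared genes past the same fold as background. Between ACP and ACV, 8 of 32 members were higher in ACP, against 9.87% of 13356 genes, and 3 were lower in ACP, against 8.63%. The median log2 fold was 0.12 over the members and 0.00 over all genes. Between ACP and Larynx, 5 of 32 members were higher in ACP, against 10.3% of 13256 genes, and 10 were higher in Larynx, against 12.5%, with a median log2 fold of -0.52 against -0.03. Between ACV and Larynx, 2 of 31 members were higher in ACV, against 10.4% of 13297 genes, and 15 were higher in Larynx, against 14%, with medians of -0.86 and -0.03. With *Rn45s* kept in the totals, the median log2 fold over all genes moved to 0.58 for ACP over Larynx and 0.52 for ACV over Larynx. The calls over all genes then split into 25.6% higher in ACP and 5.24% higher in Larynx, and 24.7% higher in ACV and 7.18% higher in Larynx. The members higher in Larynx then numbered 4 and 8. Each fold was recomputed in 8 other settings: *Rn45s* in the totals, 2 other size factors, pooled counts, limits on *Apoe* and on depth, the highest neuron of each type left out, and thinning. Of the 43 folds, 22 kept their direction and stayed past 2 in all 8. With 1 added to each mean, which shrinks folds of low levels, 2 of the 43 stayed past 2, both of *Efna5* over Larynx. In the neurons with at most 900 counts of *Apoe*, the folds lost were those of *Efna4*, *Epha10*, *Ephb1* and *Unc5b* between ACP and ACV, of *Efna4*, *Epha7*, *Robo1* and *Unc5a* between ACP and Larynx, and of *Slit3*, *Unc5a* and *Unc5c* between ACV and Larynx, while 7, 2 and 2 other members passed 2-fold there. *Unc5b* was lost there because it fell below the 10% minimum, with no read in ACP, and not because its fold shrank.

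**Figure D2:**
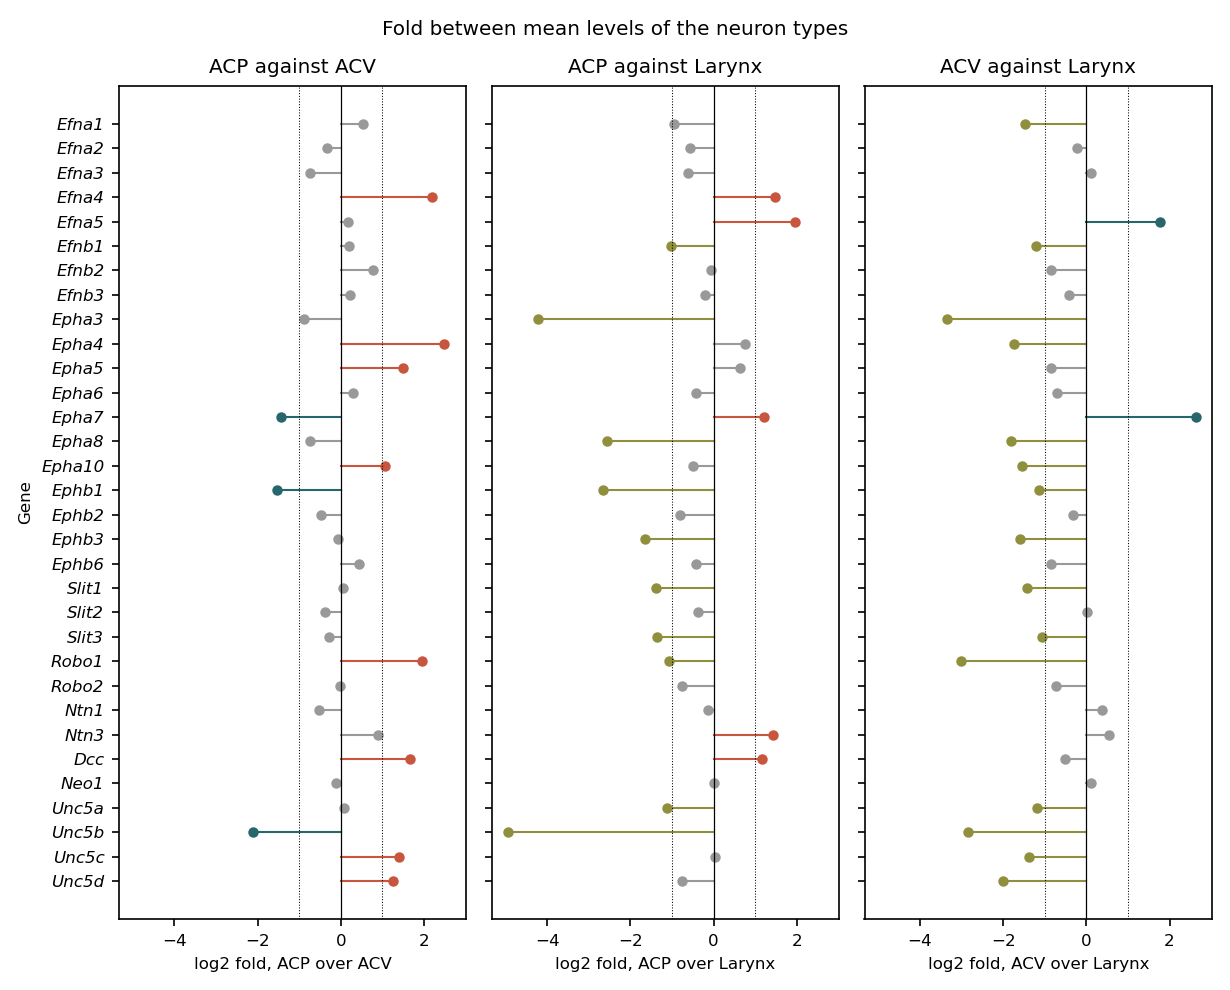
Each point is the log2 fold between mean levels of 2 types for 1 member that passed the 10% minimum. The vertical axis lists genes by family, dotted lines mark a 2-fold difference, and colored points are past it, in the color of the type with the higher level. In the right panel 15 points lie left of -1 (higher in Larynx) and 2 lie right of 1 (*Efna5* and *Epha7*).

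Among the ephrin-A ligands, *Efna5*, which encodes ephrin-A5, had the highest level per kilobase of exon in each type and had a higher mean in both heart-labeled types than in Larynx. Its level was 2.74 ± 1.86 in ACP (lowest 0.0464, median 2.63, highest 7.95), 2.43 ± 1.94 in ACV (0, 2.17, 9.37) and 0.708 ± 0.912 in Larynx (0, 0.419, 4.84). The ACP and ACV levels lay close together and the Larynx levels below them, with overlapping ranges. It had a read in all 53 ACP neurons, in 94 of 98 ACV neurons (95.9%, interval 89.9 to 98.9) and in 44 of 52 Larynx neurons (84.6%, interval 71.9 to 93.1). The mean was 3.87-fold higher in ACP than in Larynx, a difference of 1.39 SD of the neurons, and 3.43-fold higher in ACV than in Larynx, a difference of 1.14 SD. A randomly paired ACP neuron had the higher level in 87% of pairs with Larynx neurons, and an ACV neuron in 79.3%. Between ACP and ACV the fold was 1.13. Both folds against Larynx stayed past 2 in each of 8 other ways of scaling, thinning or selecting neurons. *Efna5* was the leading ephrin-A gene, per kilobase of exon, in 45 of 53 ACP, 82 of 98 ACV and 22 of 52 Larynx neurons.

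The other ephrin-A genes were lower. *Efna2* (ephrin-A2) had levels of 0.187 ± 0.436 in ACP, 0.236 ± 0.401 in ACV and 0.275 ± 0.517 in Larynx, and *Efna3* (ephrin-A3) 0.153 ± 0.195, 0.255 ± 0.278 and 0.235 ± 0.265, with no fold of 2. *Efna2* took 29.1% and *Efna3* 21.8% of the ephrin-A level per kilobase in Larynx, beside 39.6% for *Efna5*, while *Efna5* took 78.1% in ACP and 72.2% in ACV. *Efna1* (ephrin-A1) had a read in 6 of 53 ACP, 10 of 98 ACV and 7 of 52 Larynx neurons, with levels of 0.0324 ± 0.165 (lowest and median 0, highest 1.16), 0.0223 ± 0.0947 (0, 0, 0.566) and 0.0624 ± 0.194 (0, 0, 1.07), 2.80-fold higher in Larynx than in ACV. *Efna4* (ephrin-A4) had a read in 6 of 53 ACP, 7 of 98 ACV and 5 of 52 Larynx neurons. Its mean of 0.0352 ± 0.185 in ACP (median 0, highest 1.33) was 4.56-fold that of ACV (0.00772 ± 0.0335, median 0, highest 0.201) and 2.79-fold that of Larynx (0.0126 ± 0.0665, median 0, highest 0.465). One ACP neuron carried most of this, and in the neurons with at most 900 counts of *Apoe* the log2 folds turned to -0.77 and -2.35. Exons of *Efna3* and *Efna4* overlap exons of genes on the opposite strand, and whether the counting used strand is not given in the sources used here.

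Among the EphA receptors, *Epha5* was highest in ACP, at 3.05 ± 2.80 (lowest 0, median 2.10, highest 15.5), against 1.08 ± 1.13 in ACV (0, 0.701, 6.70) and 1.96 ± 1.92 in Larynx (0, 1.46, 7.70). Reads were present in 52 of 53, 93 of 98 and 48 of 52 neurons, so the types differed in level rather than in how many neurons had a read. The mean was 2.82-fold higher in ACP than in ACV, by 0.922 SD, and an ACP neuron had the higher level in 77.2% of pairs. This fold stayed past 2 in all 8 other settings. Against Larynx the fold was 1.56.

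*Epha7* had the opposite order between the heart-labeled types. Its level was 1.16 ± 1.29 in ACV (lowest 0, median 0.891, highest 6.76), 0.431 ± 0.667 in ACP (0, 0.0605, 3.35) and 0.186 ± 0.343 in Larynx (0, 0.0214, 1.42). The median ACV neuron lay above most neurons of the other types, although ranges overlapped. A read was found in 86 of 98 ACV neurons (87.8%, interval 79.6 to 93.5), 34 of 53 ACP neurons (64.2%, interval 49.8 to 76.9) and 29 of 52 Larynx neurons (55.8%, interval 41.3 to 69.5), and at equal depth in 80.6%, 60.4% and 50%. The mean was 2.70-fold higher in ACV than in ACP (0.713 SD) and 6.24-fold higher in ACV than in Larynx (1.03 SD), past 2-fold in all 8 other settings. It was 2.31-fold higher in ACP than in Larynx, which was lost in 3 of the 8 settings, among them the neurons with at most 900 counts of *Apoe*.

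*Epha4*, a receptor that binds ephrins of both classes and repels limb motor axons, was lowest in ACV. Its level was 0.778 ± 1.5 in ACP (lowest 0, median 0.104, highest 9.30), 0.139 ± 0.365 in ACV (0, 0, 2.84) and 0.463 ± 0.602 in Larynx (0, 0.169, 2.68). A read was found in 38 of 53 ACP, 46 of 98 ACV and 35 of 52 Larynx neurons. The median ACV neuron thus had none. The mean was 5.60-fold higher in ACP than in ACV and 3.33-fold higher in Larynx than in ACV, both past 2 in all 8 other settings. *Epha10*, which encodes a receptor without an active kinase, was also lowest in ACV, at 0.398 ± 0.666 (0, 0.140, 4.00), against 0.833 ± 0.992 in ACP (0, 0.520, 3.69) and 1.17 ± 1.35 in Larynx (0, 0.610, 4.79). Its 2.09-fold difference between ACP and ACV was lost in the neurons with at most 900 counts of *Apoe* (log2 fold 0.95), and its 2.93-fold difference between Larynx and ACV with *Rn45s* in the totals (log2 fold -0.94). Exons of *Epha10* overlap those of a gene on the opposite strand.

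*Epha3* and *Epha8* had their higher levels in larynx-labeled neurons. *Epha3* had a level of 0.380 ± 0.709 in Larynx (lowest and median 0, highest 2.82), 0.0203 ± 0.0564 in ACP (0, 0, 0.218) and 0.0375 ± 0.133 in ACV (0, 0, 0.782). A read was found in 24 of 52 Larynx neurons (46.2%, interval 32.2 to 60.5), 8 of 53 ACP neurons (15.1%, interval 6.75 to 27.6) and 16 of 98 ACV neurons (16.3%, interval 9.63 to 25.2), and 8 Larynx neurons but no heart-labeled neuron reached a level of 1. The mean was 18.7-fold higher in Larynx than in ACP and 10.1-fold higher than in ACV. *Epha8* had a level of 0.104 ± 0.204 in Larynx (0, 0, 0.881), 0.0178 ± 0.0785 in ACP (0, 0, 0.552) and 0.0297 ± 0.116 in ACV (0, 0, 0.851), with a read in 23 of 52, 9 of 53 and 16 of 98 neurons. The folds of Larynx over ACP and ACV were 5.87 and 3.51. All 4 folds of these genes stayed past 2 in the 8 other settings. Reads of both genes in the same neuron were found in 16 of 52 Larynx (30.8%), 3 of 53 ACP (5.66%) and 5 of 98 ACV neurons (5.10%). *Epha6* had levels of 0.178 ± 0.330 in ACP, 0.146 ± 0.640 in ACV and 0.239 ± 0.570 in Larynx. *Epha1* had a read in 6 neurons in all, 2 of them ACP, 3 ACV and 1 Larynx, and *Epha2* in 1 Larynx neuron. None of the 53 ACP and 98 ACV neurons had a read of *Epha2*. Taking 3 neurons of the total as the limit, this allows a share of neurons with a read of up to 5.66% and 3.06%, and the upper ends of the exact intervals were 6.72% and 3.69%.

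**Figure D3:**
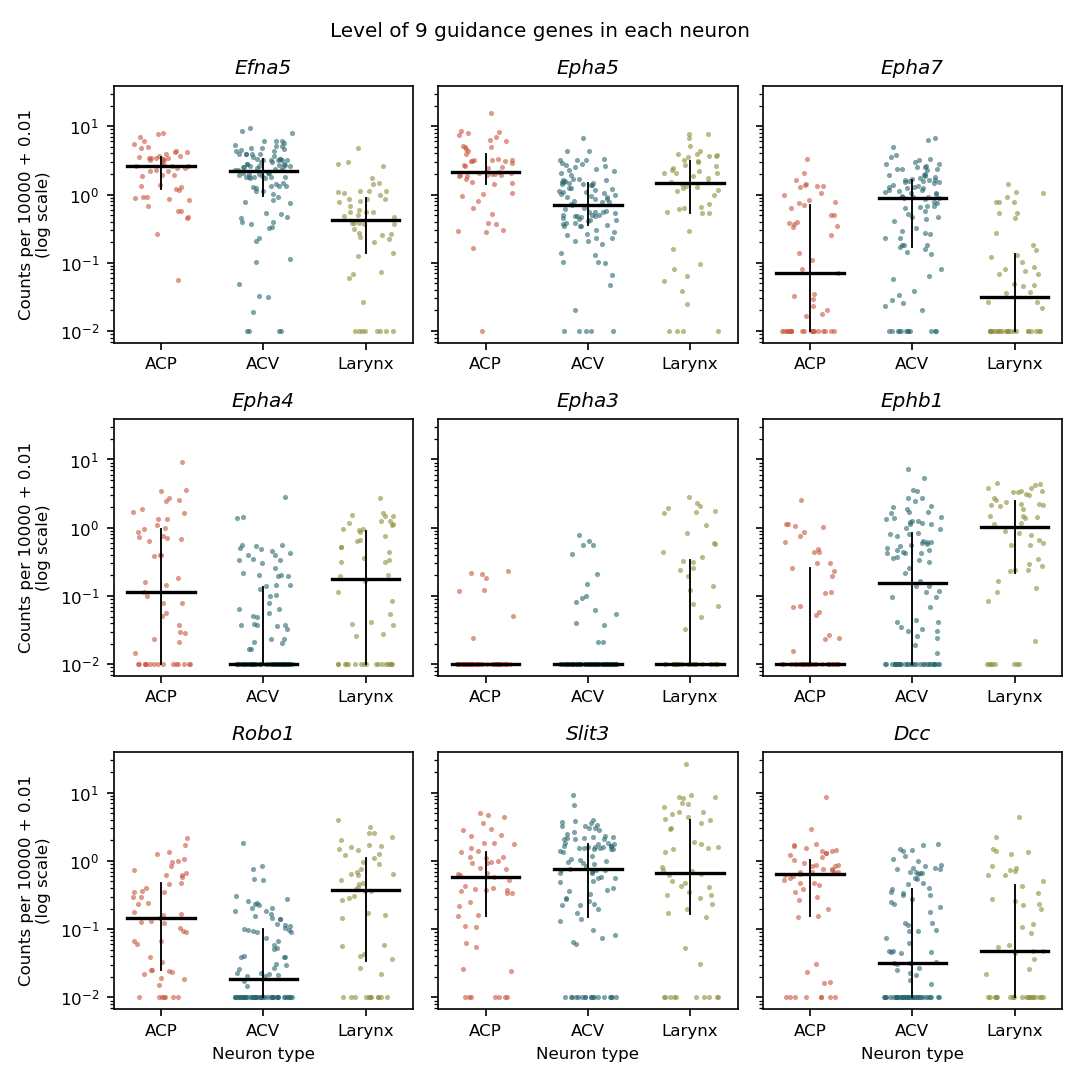
Each point is 1 neuron, by type (53 ACP, 98 ACV, 52 Larynx). The vertical axis is the level in counts per 10000 outside Rn45s plus 0.01 on a log scale, so neurons without a read sit at 0.01, thick bars are medians and thin bars span the quartiles. The *Efna5* medians are 2.63, 2.17 and 0.419, the *Epha7* median is 0.891 in ACV against 0.0605 and 0.0214, and every *Epha3* median is at 0.

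Per kilobase of exon, *Epha5* was the leading EphA gene in 26 of 53 ACP (49.1%), 22 of 98 ACV (22.4%) and 15 of 52 Larynx neurons (28.8%). *Epha7* led in 47 of 98 ACV neurons (48%) and in 1 neuron of each other type, and *Epha10* in 13 ACP, 17 ACV and 18 Larynx neurons. With the length of the longest coding transcript in place of all exons, *Epha5* led in 56.6%, 27.6% and 34.6% of neurons and *Epha7* in 37.8% of ACV neurons, and *Epha10* in 32.1%, 25.5% and 44.2%. As shares of the summed EphA level per kilobase, *Epha5* took 38.1% in ACP, *Epha7* 40.1% in ACV and *Epha10* 34.6% in Larynx.

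**Figure D4:**
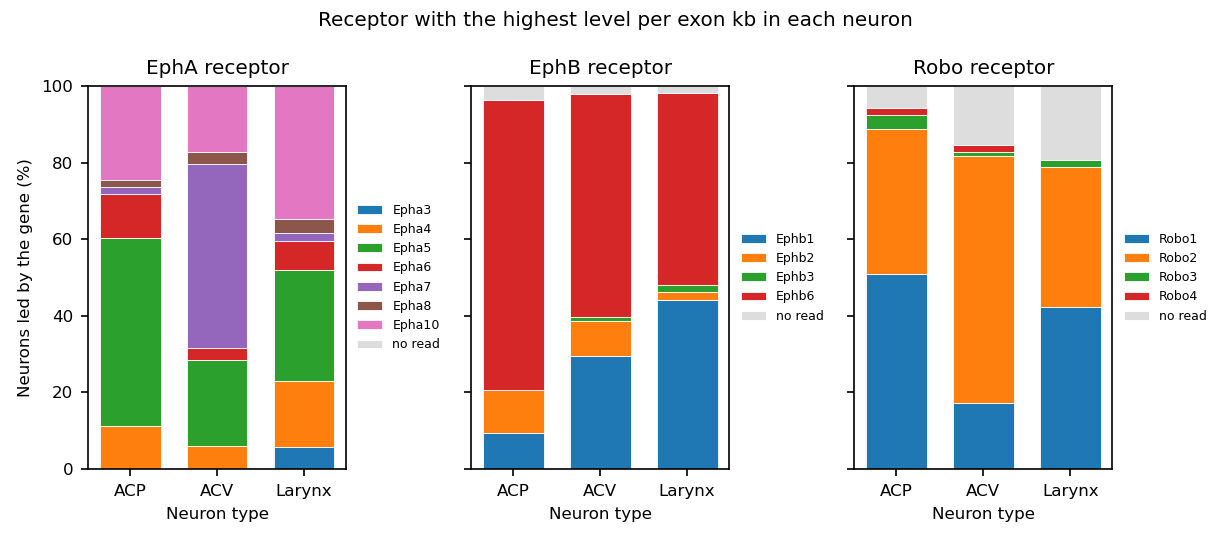
Bars give, for each neuron type, the percent of neurons in which each gene had the highest level per kilobase of exon among the EphA (left), EphB (middle) or Robo (right) receptors. Gray marks neurons without a read of the family. *Epha7* leads in 48% of ACV neurons and 1.89% and 1.92% of ACP and Larynx neurons, and *Robo1* in 50.9% of ACP, 17.3% of ACV and 42.3% of Larynx neurons.

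Of the ephrin-B ligands, *Efnb1* alone passed a fold of 2 in any comparison. *Efnb3* (ephrin-B3) had the highest level per kilobase of the 3, with 0.417 ± 0.453 counts per 10000 in ACP (lowest 0, median 0.288, highest 2.19), 0.358 ± 0.466 in ACV (0, 0.256, 3.07) and 0.479 ± 0.570 in Larynx (0, 0.311, 2.93), and folds of 1.34 or less. *Efnb2* (ephrin-B2) had levels of 0.226 ± 0.248, 0.132 ± 0.238 and 0.236 ± 0.354. *Efnb1* (ephrin-B1) had levels of 0.0419 ± 0.108 in ACP (median 0, highest 0.444), 0.0366 ± 0.109 in ACV (0, 0.489) and 0.0848 ± 0.362 in Larynx (0, 2.33), with a read in 11, 26 and 11 neurons. Its folds of 2.02 and 2.32 in favor of Larynx were lost, in this and other settings, when the neuron with the highest level in each type was left out.

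Among their receptors, *Ephb1* was highest in Larynx and lowest in ACP. Its level was 0.229 ± 0.462 in ACP (lowest 0, median 0, highest 2.57), 0.663 ± 1.15 in ACV (0, 0.144, 7.30) and 1.45 ± 1.42 in Larynx (0, 1.01, 4.52). A read was found in 26 of 53 ACP (49.1%, interval 35.1 to 63.2), 67 of 98 ACV (68.4%, interval 58.2 to 77.4) and 44 of 52 Larynx neurons (84.6%, interval 71.9 to 93.1), and at equal depth in 43.4%, 62.2% and 86.4%. Shares and means gave the same order. The mean was 6.34-fold higher in Larynx than in ACP (1.16 SD), past 2 in all 8 other settings. It was 2.20-fold higher in Larynx than in ACV, a log2 fold of -1.13 that became -0.74 with *Rn45s* in the totals, and 2.89-fold higher in ACV than in ACP, a log2 fold of -1.53 that became -0.87 in the neurons with at most 900 counts of *Apoe*. *Ephb1* exons overlap a gene on the opposite strand.

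*Ephb6*, whose product lacks kinase activity, had the highest EphB level per kilobase, with counts per 10000 of 1.06 ± 1.19 in ACP (lowest 0, median 0.768, highest 4.69), 0.786 ± 0.853 in ACV (0, 0.572, 3.44) and 1.42 ± 2.43 in Larynx (0, 0.471, 15.2), all within a fold of 1.81. It led the EphB genes in 40 of 53 ACP, 57 of 98 ACV and 26 of 52 Larynx neurons, while *Ephb1* led in 5, 29 and 23. By transcript length *Ephb1* led in 57.7% and *Ephb6* in 34.6% of Larynx neurons, so which of them leads in that type depends on the length used. *Ephb2* had levels of 0.206 ± 0.323, 0.287 ± 0.412 and 0.358 ± 0.636 with no fold of 2. *Ephb3* had 0.0454 ± 0.140 in ACP (median 0, highest 0.674), 0.0473 ± 0.208 in ACV (0, 1.93) and 0.143 ± 0.413 in Larynx (0, 2.63), with a read in 12, 18 and 19 neurons, and was 3.16-fold and 3.03-fold higher in Larynx. The fold against ACP was lost with *Rn45s* in the totals (log2 fold -0.99). *Ephb4* had a read in 4 ACP, 5 ACV and 4 Larynx neurons.

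Slit ligands were present in most neurons. *Slit2* had levels of 1.57 ± 1.5 in ACP (lowest 0, median 1.15, highest 5.81), 2.02 ± 2.20 in ACV (0, 1.34, 10.9) and 2.01 ± 2.59 in Larynx (0, 0.936, 11), with a read in 49 of 53, 92 of 98 and 50 of 52 neurons. *Slit3* had levels of 1.01 ± 1.25 in ACP (0, 0.574, 4.96), 1.23 ± 1.46 in ACV (0, 0.747, 9.15) and 2.6 ± 4.32 in Larynx (0, 0.667, 26.2). The *Slit3* medians were close together, and the higher Larynx mean came with 10 of 52 neurons at a level of 5 or more, against 0 of 53 in ACP and 2 of 98 in ACV. The Larynx mean was 2.57-fold that of ACP, lost with *Rn45s* in the totals (log2 fold -0.70), and 2.10-fold that of ACV, which stayed past 2 in 2 of the 8 other settings. *Slit1* had levels of 0.184 ± 0.426 in ACP (median 0, highest 2.30), 0.178 ± 0.424 in ACV (0, 3.32) and 0.481 ± 0.846 in Larynx (0.0402, 3.97), with a read in 17 of 53, 41 of 98 and 30 of 52 neurons. Its folds of 2.62 and 2.70 in favor of Larynx were lost with *Rn45s* in the totals. *Slit3* had the highest mean Slit level per kilobase of exon in each type. It led in 30 ACP, 65 ACV and 33 Larynx neurons by exon length, but by transcript length *Slit2* led in 47.2%, 45.9% and 28.8% of neurons and *Slit3* in 39.6%, 42.9% and 53.8%.

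Of the Robo receptors, *Robo1* passed a fold of 2 in each comparison and *Robo2* in none. The *Robo1* level was 0.345 ± 0.472 in ACP (lowest 0, median 0.135, highest 2.16), 0.0898 ± 0.226 in ACV (0, 0.00893, 1.80) and 0.720 ± 0.915 in Larynx (0, 0.365, 3.95). A read was found in 46 of 53 ACP (86.8%, interval 74.7 to 94.5), 51 of 98 ACV (52%, interval 41.7 to 62.2) and 41 of 52 Larynx neurons (78.8%, interval 65.3 to 88.9), and at equal depth in 71.7%, 43.9% and 79.5%. ACV thus had the lowest mean, median and share. The mean was 8.02-fold higher in Larynx than in ACV (0.946 SD) and 3.84-fold higher in ACP than in ACV (0.691 SD), both past 2 in all 8 other settings, while the 2.09-fold difference between Larynx and ACP was lost in 2 of them. *Robo2* had levels of 0.394 ± 0.693 in ACP (0, 0.178, 4.38), 0.398 ± 0.645 in ACV (0, 0.111, 4.36) and 0.664 ± 0.995 in Larynx (0, 0.206, 5.03), with folds of 1.69 or less. *Robo1* led in 27 of 53 ACP, 17 of 98 ACV and 22 of 52 Larynx neurons and *Robo2* in 20, 63 and 19, and by transcript length the *Robo1* numbers were the same. *Robo3*, which acts at midline crossing, had a read in 4 ACP, 2 ACV and 2 Larynx neurons, and *Robo4*, known from endothelium, in 1, 2 and 1.

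Of the Netrin ligands, *Ntn3* was read in 29 of 53 ACP, 53 of 98 ACV and 27 of 52 Larynx neurons, and the other 3 in fewer. *Ntn1* (Netrin-1) had a read in 8 of 53 ACP, 18 of 98 ACV and 13 of 52 Larynx neurons, with levels of 0.0298 ± 0.119, 0.0426 ± 0.159 and 0.0327 ± 0.0843 and no fold of 2. *Ntn3* had the highest level per kilobase, with counts per 10000 of 0.286 ± 0.471 in ACP (lowest 0, median 0.0308, highest 2.00), 0.155 ± 0.264 in ACV (0, 0.0244, 1.20) and 0.107 ± 0.296 in Larynx (0, 0.00888, 1.91), and 2.68-fold more in ACP than in Larynx. That fold was lost as a ratio of pooled counts (log2 fold 0.79), and *Ntn3* exons overlap those of *Tbc1d24* on the same strand, so its counts may include reads of that gene. *Ntn4* had a read in 1 ACP, 5 ACV and 2 Larynx neurons, and *Ntn5* in 1 ACP neuron.

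Of the Netrin receptor genes, *Dcc* had its highest level in ACP. Its level was 0.825 ± 1.26 in ACP (lowest 0, median 0.642, highest 8.70), 0.258 ± 0.422 in ACV (0, 0.0222, 1.77) and 0.370 ± 0.746 in Larynx (0, 0.0378, 4.37). A read was found in 45 of 53 ACP (84.9%, interval 72.4 to 93.3), 57 of 98 ACV (58.2%, interval 47.8 to 68.1) and 31 of 52 Larynx neurons (59.6%, interval 45.1 to 73), and at equal depth in 79.2%, 46.9% and 56.8%. The median ACP neuron thus lay well above the medians of the other types. The mean was 3.19-fold higher in ACP than in ACV (0.604 SD), past 2 in all 8 other settings with log2 folds of 1.32 to 2.03, and an ACP neuron had the higher level in 69.9% of pairs. It was 2.23-fold higher in ACP than in Larynx, which was lost in 3 of the 8. *Neo1* levels lay within 1.08-fold of each other, at 0.942 ± 1.14 (0, 0.611, 5.88), 1.01 ± 1.25 (0, 0.678, 8.03) and 0.937 ± 0.964 (0, 0.737, 4.20), with a read in 49, 90 and 48 neurons. Per kilobase, *Dcc* exceeded *Neo1* in 32.1% of ACP, 10.2% of ACV and 19.2% of Larynx neurons.

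The 4 *Unc5* receptors were each at least 2-fold higher in Larynx than in ACV. *Unc5d* had a level of 1.79 ± 1.98 in Larynx (lowest 0, median 0.960, highest 7.2), 1.07 ± 1.71 in ACP (0, 0.366, 8.17) and 0.448 ± 0.805 in ACV (0, 0.214, 5.61). Its folds over ACV of 4.00 in Larynx and 2.39 in ACP stayed past 2 in all 8 other settings. *Unc5c* had levels of 0.382 ± 0.876 in ACP (0, 0.112, 5.64), 0.144 ± 0.412 in ACV (0, 0, 2.94) and 0.374 ± 0.746 in Larynx (0, 0.0775, 4.34), with a read in 34 of 53, 38 of 98 and 37 of 52 neurons. It was 2.64-fold higher in ACP than in ACV, past 2 in all 8 other settings, and 2.59-fold higher in Larynx than in ACV, which was lost in 2. *Unc5a* had levels of 0.219 ± 0.369 in ACP (0, 0.0402, 1.43), 0.209 ± 0.428 in ACV (0, 0.00915, 2.24) and 0.475 ± 0.762 in Larynx (0, 0.106, 3.57), and its folds of 2.17 and 2.28 were lost in 2 of the 8 settings each. Exons of *Unc5a* and *Unc5c* overlap genes on the opposite strand. *Unc5b* was near 0, with a read in 3 of 53 ACP, 14 of 98 ACV and 9 of 52 Larynx neurons and levels of 0.00248 ± 0.0117 (highest 0.0743), 0.0108 ± 0.0470 (highest 0.398) and 0.0769 ± 0.285 (highest 1.63). The fold of Larynx over ACV was 7.15. The folds of 31 for Larynx over ACP and 4.33 for ACV over ACP rest on 14 counts in all ACP neurons. In the neurons with at most 900 counts of *Apoe* no ACP neuron had a read.

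Ephrins and Eph receptors, and Slits and Robo receptors, were mostly read in the same neuron. Netrins were not counted together with their receptors. Reads of at least 1 ephrin-A and at least 1 EphA gene were found in 53 of 53 ACP, 97 of 98 ACV and 50 of 52 Larynx neurons, and reads of an ephrin-B and an EphB gene in 46, 92 and 43. In each type *Efna5* alone was read in 84.6% or more and *Epha5* alone in 92.3% or more of neurons. A high joint share of ephrin-A and EphA reads thus follows from the separate shares. A Slit together with *Robo1* or *Robo2* was read in 48 of 53, 81 of 98 and 42 of 52 neurons. *Dcc* together with any *Unc5* gene was read in 42 of 53 ACP neurons (79.2%, interval 65.9 to 89.2), 51 of 98 ACV neurons (52%, interval 41.7 to 62.2) and 29 of 52 Larynx neurons (55.8%, interval 41.3 to 69.5), and at equal depth in 73.6%, 39.8% and 56.8%. The ACP share was the highest at either depth, as was that of *Dcc* alone (84.9% in ACP, 58.2% in ACV and 59.6% in Larynx before thinning). Whether this or any other pair here was read together more often than the separate shares give was not tested. *Robo1* with *Robo2* was read in 34 of 53, 40 of 98 and 35 of 52 neurons. Cells were aspirated from slices, and reads from touching cells cannot be told apart from those of the labeled neuron.

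Genes that act with these families or are related to them were described as 3 lists. Of 36 such genes, all compared, 5 were at least 2-fold higher in ACP than in ACV (13.9%, against 9.87% of all genes) and 1 was lower (2.78%, against 8.63%). Among the genes of the Netrin and DCC list are the Netrin-G genes *Ntng1* and *Ntng2* and the Netrin-G1 ligand gene *Lrrc4c*. This list held 4 of the 5. These were *Rgmb*, which encodes a Neogenin ligand, with levels of 2.20 ± 2.30 in ACP, 0.366 ± 0.542 in ACV and 1.23 ± 1.05 in Larynx, *Ntng2* (Netrin-G2) with 0.261 ± 0.716, 0.0234 ± 0.122 and 0.261 ± 0.409, *Lrrc4c*, which encodes the Netrin-G1 ligand, with 0.658 ± 0.720, 0.265 ± 0.474 and 1.05 ± 1.01, and *Adora2b*, an adenosine receptor gene, with 0.0372 ± 0.155, 0.0186 ± 0.0990 and 0.0698 ± 0.210. The fifth, *Nck2*, an adaptor of Eph signaling, had 0.122 ± 0.288, 0.0537 ± 0.212 and 0.134 ± 0.303, and *Grip1*, which binds ephrin-B, was higher in ACV, with 0.226 ± 0.355, 0.497 ± 0.979 and 0.474 ± 0.781. *Adora2b* was read in 11.3% of ACP and 5.10% of ACV neurons, and its fold of 2.00 lay at the limit.

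Between ACP and Larynx, 2 partner genes were higher in ACP (5.56%, against 10.3%) and 6 in Larynx (16.7%, against 12.5%). Between ACV and Larynx, 2 were higher in ACV (5.56%, against 10.4%) and 10 in Larynx (27.8%, against 14%). The 2 genes higher in both heart-labeled types were *Ntng1* (Netrin-G1), with 1.20 ± 1.10 in ACP, 1.30 ± 1.45 in ACV and 0.586 ± 0.829 in Larynx, and *Dock1*, with 0.0543 ± 0.131, 0.0543 ± 0.145 and 0.0219 ± 0.109. *Chn2*, *Vav2* and *Vav3*, regulators of small GTPases downstream of Eph receptors, were higher in Larynx than in both, by 2.48-fold, 2.05-fold and 4.48-fold over ACP and by 2.96-fold, 3.48-fold and 2.81-fold over ACV. Levels in ACP, ACV and Larynx were 0.108 ± 0.330, 0.0903 ± 0.235 and 0.268 ± 0.459 for *Chn2*. They were 0.101 ± 0.337, 0.0593 ± 0.173 and 0.206 ± 0.392 for *Vav2*, and 0.0545 ± 0.155, 0.0869 ± 0.247 and 0.244 ± 0.580 for *Vav3*. *Grip1* (2.10-fold), *Sos1* (2.79-fold) and *Rgma* (2.55-fold) passed 2-fold in Larynx over ACP but not over ACV. In the same order of types, *Sos1* had 0.279 ± 0.391, 0.421 ± 0.693 and 0.779 ± 0.957. *Rgma* was low in every type, with 0.0200 ± 0.0519, 0.0261 ± 0.0542 and 0.0510 ± 0.169. *Nck2* (2.50-fold), *Gpc1* (2.32-fold), *Rgmb* (3.37-fold), *Trio* (2.00-fold), *Ntng2* (11.2-fold), *Lrrc4c* (3.97-fold) and *Adora2b* (3.76-fold) passed 2-fold in Larynx over ACV but not over ACP. *Gpc1* had 1.16 ± 1.14, 0.746 ± 1.31 and 1.73 ± 1.58, and *Trio* 0.608 ± 0.806, 0.521 ± 0.741 and 1.04 ± 1.32. No partner of the Slit and Robo list passed 2-fold between ACP and ACV. *Dock1* was read in 28.3% of ACP, 25.5% of ACV and 7.69% of Larynx neurons, and the fold of *Trio* lay at the limit. Folds of the listed partner genes were not recomputed in the other settings.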

How the data were processed

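Neurons were isolated, and libraries made by Smart-seq2 and sequenced as paired-end reads, by the authors. Per the labels and the study's methods, reads were trimmed with Skewer and aligned to mm10 with STAR 2.6.1d, and neurons with few aligned reads or many *Apoe* counts were removed. The deposited values are raw read counts per gene and neuron. The counting program, its strand setting and the annotation are not given in the sources used here. A second deposited table, named CPM, does not sum to the same total in each neuron and was not used. Types came from the deposited annotation of each neuron.

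Here counts were divided by each neuron's total outside *Rn45s* and scaled to 10000. The mean over neurons was the level, and a fold of mean levels of at least 2 was called in genes read in 10% or more of the neurons of 1 of the 2 types. An SD difference is the difference in means over the root of the mean of the 2 types' variances over neurons. Pairs are all pairs of neurons of 2 types. Levels were divided by exon length (GENCODE M21) only to rank genes. Every member is named, with full values for those past the fold and those highest per length in a family. Members, partner and marker lists were chosen with earlier results of these data known. A gene of the marker lists is not reported here. Alternatives were totals with *Rn45s*, edgeR 4.0.16 TMM sizes, DESeq2 1.42.0 size factors, pooled sums, 1 added to the mean, *Apoe* and depth limits, leaving out the highest neuron, thinning, other filters and folds, and, chosen after seeing the data, transcript length. edgeR and DESeq2 gave scaling only. The fold step was tested on simulated data for genes of higher counts only, so that test does not cover the sparse genes. Python 3.11.15 and R 4.3.3 were used.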

Additional observations from a re-analysis of the deposited data

How the results depend on the processing

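Of 43 folds of at least 2 among the members, 22 kept their direction and stayed past 2 in all 8 other ways of scaling, weighting, thinning or selecting neurons, and 21 were lost in at least 1. With 1 added to the mean level, members higher in ACP than in ACV numbered 0 and lower 0, higher in ACP than in Larynx 1 and lower 0, and higher in ACV than in Larynx 1 and lower 0, since most levels lie below 1. With *Rn45s* in the totals, 4 members in place of 10 were lower in ACP and 8 in place of 15 lower in ACV than in Larynx, while the median of all genes moved by the amounts given above. Members lower in ACP than in ACV numbered 5 in place of 3 in the neurons with at most 900 counts of *Apoe*, without the highest neuron of each type, and with no filter on low values, and 6 at a fold of 1.5. Members higher in ACP than in Larynx numbered 2 in place of 5 as a ratio of pooled sums and after thinning to 300000 counts. The *Efna4* log2 folds turned to -0.77 (ACP over ACV) and -2.35 (ACP over Larynx) with at most 900 counts of *Apoe*. Other causes were not tested. No paired analysis was possible because the labels tie no neuron to a mouse and each type is 1 sample. Reads missed within a neuron are not covered by any interval given here, which bears most on the sparse genes.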
